A study of Mus musculus with 18 samples.

Results

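The livers described here are the 12 wild-type (WT) livers of the series, 6 labelled as WT controls and 6 from WT mice with a pancreatic ductal adenocarcinoma (PDAC), chosen by those sample titles out of 18 livers in all. Per the labels the tumour line is PDA.69, a T cell-low line derived from KPC mice, a mouse model of PDAC. The same line is written against the controls too, and the labels give no age, sex, time or site of implantation for either group. The other 6 livers, whose mice were Alb-Cre+/+;Stat3f/f and bore the tumour as well (called Stat3-deleted here), entered the statistical fit only, where they add to the estimate of the spread. Nothing in the labels says that the 6 libraries of a group came from 6 mice, so the p-values measure the spread between these libraries. The comparison asks how RNA levels in the liver differ between mice with and without the tumour, here over all expressed genes rather than the top acute-phase genes alone.

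The liver makes most plasma proteins. During the acute-phase response, cytokines of the IL-6 family bind receptors that share the chain gp130 and activate STAT3 in hepatocytes, which then raise the genes of a set of secreted proteins such as fibrinogen, haptoglobin and serum amyloid A. Secreted proteins pass through the endoplasmic reticulum (ER) and Golgi apparatus, and hepatocytes share this capacity with lipid, drug, bile acid and amino acid metabolism. Kupffer cells, the resident macrophages, and the endothelial, stellate, biliary and blood-borne cells of the tissue add their own RNA to a bulk liver library. In such a library fewer cells of a type and less RNA per cell cannot be told apart.

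RNA was read as 3′ tags, so that a count is a read from the end of a polyadenylated transcript. The libraries held 5204378 to 7149953 counts in control and 6159553 to 8838849 in tumour-bearing livers. Levels are given as CPM, the count scaled to 1 common library size with TMM factors, which offset differences in composition. Log2 fold changes are tumour-bearing over control and carry their standard error after ±. Hepatocyte markers summed to 102850.1 to 136915 CPM in control livers and 108728 to 236001 CPM in tumour-bearing livers, 0 of the list's 20 genes was at 0, and 1 was called, Fgb. Tumour-bearing liver 6 had the lowest scaling factor, 0.75, against 0.89 to 1.09 in the other tumour-bearing and 1.02 to 1.11 in control livers. Per library, the top 20 genes held 24.4% to 26.1% of the counts in controls and 24.5% to 35.1% in tumour-bearing livers. Control liver 2 stood apart in sex-biased genes, with 137 CPM of the female-biased Cyp2a4 against at most 2.58 CPM in the other controls. All 12 livers had reads of the Y-linked gene Ddx3y (122 to 208 CPM in tumour-bearing livers, 121.8 to 159.5 in control livers).

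Of 11218 genes tested, 252 (2.25%) were called, meaning an adjusted p under 0.05 in edgeR's quasi-likelihood test. Of these 197 (1.76% of those tested) were higher and 55 (0.49%) lower in tumour-bearing livers. Under 2-fold lay 102 of the called genes (0.909% of those tested), between 2-fold and 4-fold 99, and at 4-fold or more 51. Among the 51 largest changes 44 were higher, while among those under 2-fold 71 were higher and 31 lower. Without TMM, scaled by library totals, 293 genes (2.61%) were called, 116 higher and 177 lower, and the median of all genes was then -0.19 on the log2 scale in place of 0.00. Scaled by totals without the acute-phase genes, the call count was 217, with 161 higher and 56 lower, and the median was -0.04. An unadjusted p under 0.05 was reached by 1816 genes (16.2%), 968 of them higher (8.63%) and 848 lower (7.56%). DESeq2 called 462 genes (4.12%). With the 2 WT groups alone in the fit, without the Stat3-deleted livers, 128 genes were called, 106 higher, 22 lower and 34 under 2-fold. Of the 252 calls that fit kept 123, among them 106 of the 197 higher and 17 of the 55 lower. All 6 tumour-bearing livers lay above every control for 118 genes (1.05%) and below every control for 52 (0.464%).

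**Figure D1:**
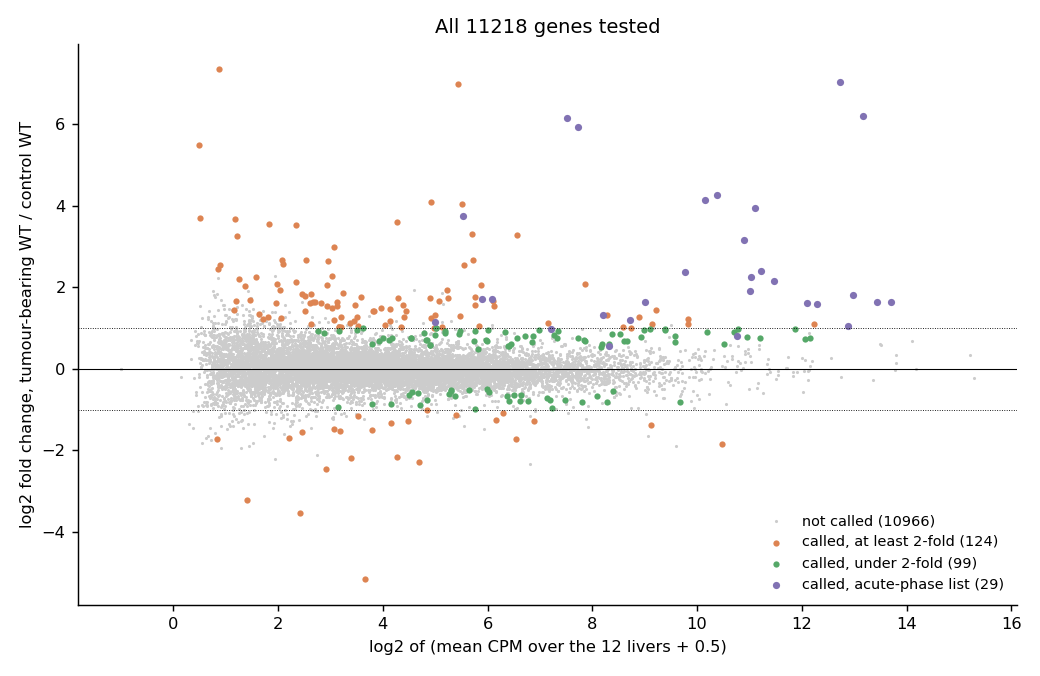
Log2 fold change (tumour-bearing WT over control WT, y axis) against the log2 of the mean CPM plus 0.5 over the 12 livers (x axis) for the 11218 genes tested. Each point is 1 gene, with the 29 called genes of the acute-phase list, the other called genes and the genes not called in separate colours, and dotted lines at 2-fold; the called acute-phase genes all lie above 0, and the 102 called genes under 2-fold lie between the dotted lines.

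Of the 252 calls, 120 held in each of the 18 fits that left out 1 library, 106 of them higher and 14 lower, and 31 of these 120 were under 2-fold. The number of calls went down to 133 without tumour-bearing liver 3 and 139 without tumour-bearing liver 4, and up to 444 without tumour-bearing liver 1. It was 160 without control liver 6 and 162 without control liver 4, and lay between 175 and 343 without any other WT liver, with 235 without control liver 2 and 200 without tumour-bearing liver 6. The 14 lower genes that no left-out library ended were Gm4956, Acmsd, Krt23, Srd5a1, Apol7a, Mcm10, Etnppl, Tcea3, Ugt2b37, Ugt2b38, Arhgap24, Ethe1, Cox7a1 and Gsta2. Livers 1 to 3 of each WT group carry lower identifying numbers in the labels than livers 4 to 6. Fitted within each of these runs, 38 and 50 genes were called. All 242 of the called genes with a value in both runs kept their direction in both. These genes had been called from the same livers, so a shared direction was largely set by that choice.

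Of 39 measured acute-phase genes 29 rose and 0 fell (74.4% called, against 2.25% of all genes tested). The median log2 fold change was 1.63 (1.37 with library totals), against 0.00 over all genes. Since the list was drawn up with earlier results of these livers known, its count is a description. In it 37 members had a positive and 2 a negative log2 fold change. The lowest was -2.34, and 1 member was lower at an unadjusted p under 0.05 in edgeR. Fgb, which encodes the beta chain of fibrinogen, stood at 4534 to 6736 CPM in control livers (median 5083) and 10009.6 to 25846 CPM in tumour-bearing livers (median 15670.5). It rose by 1.63 ± 0.21 (adjusted p = 5.2e-05), and no control liver reached the lowest tumour-bearing one. Fgl1, a fibrinogen-like protein secreted by hepatocytes, had 268 to 508 CPM in control livers (median 366) and 1616 to 5472 CPM in tumour-bearing livers (median 3224), a rise of 3.17 ± 0.25 (adjusted p = 6.92e-08). Serpina3k, a serine protease inhibitor of the same list, was not called: it had 6621 to 22422 CPM in control livers (median 12336) and 11126 to 26677 CPM in tumour-bearing livers (median 12517). Its log2 fold change was 0.15 ± 0.25 (adjusted p = 0.828), which turned to -0.08 with library totals and to -0.10 without tumour-bearing liver 6.

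The promoters of Fgb, Cxcl14 and Socs3 are shown because these are the 3 named higher genes with the smallest adjusted p whose RefSeq promoter window holds the letters TTCNNNGAA, the core to which STAT proteins are known to bind. The windows are those of RefSeq on GRCm38.p6, and the 250 bases before the start site are printed 5′ to 3′ on the gene's strand, with the match in capitals. Fgb (chr3:83049864-83050113, minus strand) has its match beginning 162 bases before the start site, Cxcl14 (chr13:56296552-56296801, minus strand) 191 bases before, and Socs3 (chr11:117969367-117969616, minus strand) 154 bases before.
Fgb: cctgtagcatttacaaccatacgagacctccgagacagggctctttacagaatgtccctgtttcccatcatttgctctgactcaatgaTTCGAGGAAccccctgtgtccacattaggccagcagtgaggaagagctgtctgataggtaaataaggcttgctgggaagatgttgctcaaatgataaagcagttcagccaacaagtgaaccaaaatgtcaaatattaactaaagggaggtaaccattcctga
Cxcl14: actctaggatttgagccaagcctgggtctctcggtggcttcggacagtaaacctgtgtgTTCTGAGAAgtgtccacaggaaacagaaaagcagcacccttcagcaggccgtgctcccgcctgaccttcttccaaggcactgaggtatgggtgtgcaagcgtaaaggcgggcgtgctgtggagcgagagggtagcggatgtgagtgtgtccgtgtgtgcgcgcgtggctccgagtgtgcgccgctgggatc
Socs3: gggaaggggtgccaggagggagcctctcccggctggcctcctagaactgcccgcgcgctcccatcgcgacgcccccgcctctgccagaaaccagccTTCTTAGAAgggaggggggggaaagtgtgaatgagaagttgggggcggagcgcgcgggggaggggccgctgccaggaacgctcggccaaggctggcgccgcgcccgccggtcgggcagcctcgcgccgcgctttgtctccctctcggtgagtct
The motif reads the same on both strands. Of the 8614 tested genes with a 300-base window, 8.39% had at least 1 match, as had 12% of the 142 called higher, 10.4% of the 48 called lower and 21.7% of the 23 called acute-phase genes with a window. A match describes letters only. Cxcl14, a chemokine, stood at 1.27 to 4.66 CPM in control livers (median 3.43) and 7.90 to 134 CPM in tumour-bearing livers (median 44.1), with a log2 fold change of 4.09 ± 0.57 (adjusted p = 0.000141). Socs3, the feedback inhibitor of IL-6 signalling, had 0.574 to 8.65 CPM in control livers (median 1.72) and 9.46 to 70.8 CPM in tumour-bearing livers (median 26.8), a rise of 3.60 ± 0.52 (adjusted p = 0.000205). For both genes the lowest tumour-bearing liver lay above the highest control.

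The acute-phase genes together took 5.11% ± 0.751 of the counts in control livers and 14.2% ± 5.17 in tumour-bearing livers (SD, n = 6). The tumour-bearing livers differed widely among themselves, with 8.89% in liver 2, 10.2% in liver 1, 11% in liver 5, 15.2% in liver 3, 17.6% in liver 6 and 22.4% in liver 4. The 95% Wilson interval for the share in liver 4, which covers counting error only, ran from 22.36% to 22.41%. All 6 lay above the highest control liver, 6.36%. The other secreted plasma protein genes took 23.2% ± 1.5 of the counts in control livers and 24.6% ± 3.24 in tumour-bearing livers (SD, n = 6), and the groups overlapped. Over counts without the acute-phase genes their share was 24.4% ± 1.52 in control and 28.8% ± 4.65 in tumour-bearing livers (SD, n = 6), with 3 of 6 above every control, and 4 of 6 where Alb was left out. Acute-phase and other plasma protein genes together took 28.3% ± 1.42 of the counts in control and 38.8% ± 6.94 in tumour-bearing livers (SD, n = 6), with 5 of 6 tumour-bearing livers above every control. Over all counts, the means of the 2 groups were farther apart for the acute-phase share than the SD of either group, and closer together for the other plasma protein genes than the SD between tumour-bearing livers.

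**Figure D2:**
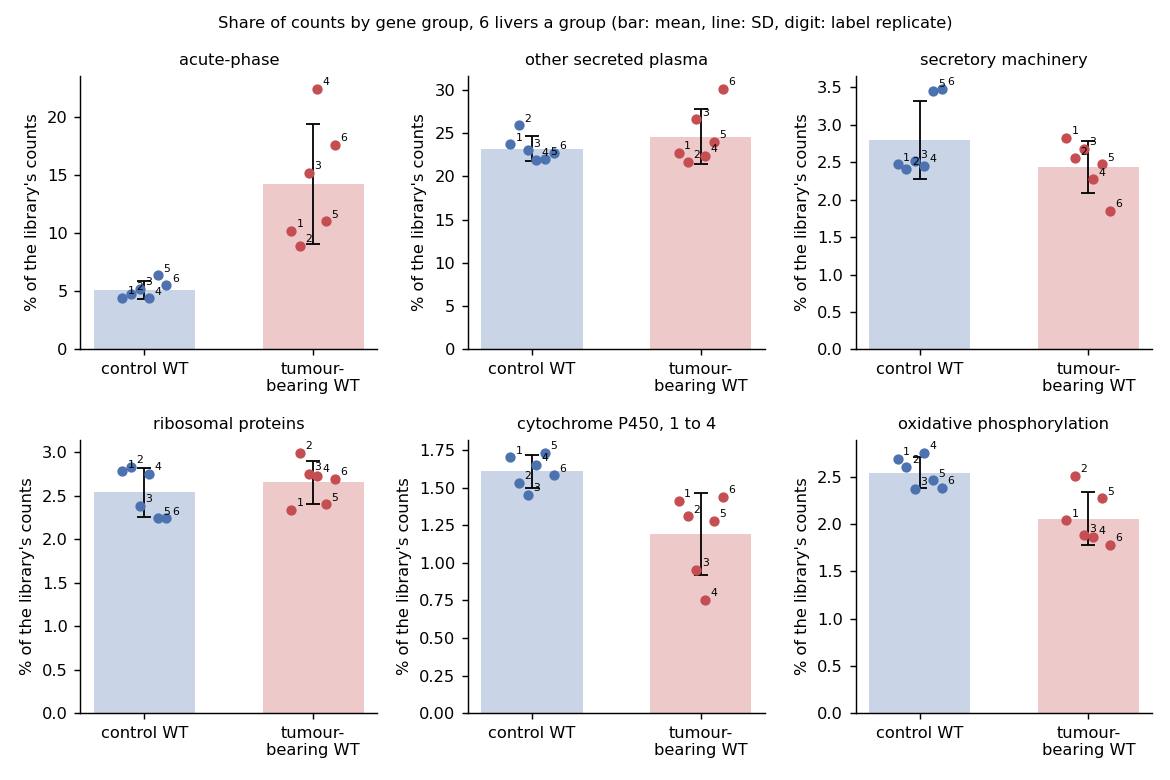
Share of each library's counts (y axis, percent, from 0) taken by 6 gene groups in the 6 control and 6 tumour-bearing WT livers. Points are livers with their replicate number, bars are means and lines are SD; the acute-phase share lies above every control in all 6 tumour-bearing livers and is highest in liver 4, and the cytochrome P450 share lies below every control in all 6.

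Among 99 measured plasma protein genes outside the acute-phase list, 19 rose and 0 fell (19.2% called, against 2.25% of all genes tested). The median log2 fold change was 0.26 (0.06 with library totals). Complement genes and their regulators were among the 19. Hc (chromosome 2, 34983329 to 35068506 on mm10), which encodes complement C5, ranged over 490.4 to 625 CPM in control livers (median 553) and 814 to 1121 CPM in tumour-bearing livers (median 959). It rose by 0.80 ± 0.12 (adjusted p = 0.000257), less than 2-fold, yet the groups did not overlap. C4b, complement C4, rose by 1.23 ± 0.18 (adjusted p = 0.000257), with 471 to 578 CPM in control livers (median 552) and 879 to 1679.7 CPM in tumour-bearing livers (median 1233); a near-identical copy lies beside it in the mouse genome, so its reads may be shared. Called regulators of complement included C4bp, Serping1 and Vtn. C4bp, the C4-binding protein, had 291 to 468 CPM in control livers (median 353) and 500.3 to 1056 CPM in tumour-bearing livers (median 677), a change of 0.99 ± 0.19 (adjusted p = 0.00413). Serping1, the C1 inhibitor, stood at 854 to 1373 CPM in control livers (median 1169.9) and 1574 to 3153 CPM in tumour-bearing livers (median 2046) and rose by 0.91 ± 0.17 (adjusted p = 0.00325). Vtn, vitronectin, rose by 0.79 ± 0.17 (adjusted p = 0.0121), with 5 of 6 tumour-bearing livers above every control. In the fit of the 2 WT groups alone its adjusted p was 0.0672.

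Other called genes of the plasma protein list, in which 80 of 99 did not pass, act in clotting, kinin release or protease control. Fn1, fibronectin, rose by 1.11 ± 0.18 (adjusted p = 0.000821), with 473 to 719 CPM in control livers (median 546) and 897 to 2029.6 CPM in tumour-bearing livers (median 1125). Cpb2, a carboxypeptidase that slows the breakdown of clots, had 314 to 411 CPM in control livers (median 366) and 494 to 1351 CPM in tumour-bearing livers (median 678), a rise of 1.10 ± 0.19 (adjusted p = 0.00159). Serpina10, an inhibitor of clotting factor X, rose by 1.28 ± 0.22 (adjusted p = 0.00181), and in none of these 3 genes did the groups overlap. Kng1 and Kng2, the kininogens from which bradykinin is cut, rose by 0.98 ± 0.21 (adjusted p = 0.0106) and 0.79 ± 0.17 (adjusted p = 0.0141), each with 5 of 6 tumour-bearing livers above every control. Neither passed in the fit of the 2 WT groups alone, with adjusted p of 0.0564 and 0.0596. Ambp, the precursor of bikunin and alpha-1-microglobulin, had 2436 to 3864 CPM in control livers (median 3031) and 3525 to 9647 CPM in tumour-bearing livers (median 6434), a rise of 1.10 ± 0.21 (adjusted p = 0.0054).

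The secreted ribonucleases Ang (angiogenin) and Rnase4 share a locus on chromosome 14 and rose to a like degree. Ang had 174 to 335 CPM in control livers (median 246) and 444 to 636 CPM in tumour-bearing livers (median 509.7), a log2 fold change of 1.04 ± 0.15 (adjusted p = 0.000171). Rnase4 had 977 to 1348 CPM in control livers (median 1209) and 1654 to 3345 CPM in tumour-bearing livers (median 2392), a log2 fold change of 0.99 ± 0.17 (adjusted p = 0.00156). For both genes the groups did not overlap. The other 5 calls were less firm. That on Clu (clusterin) ended without control liver 1, 2 or 4 or tumour-bearing WT liver 3 or 4 (adjusted p from 0.0547 to 0.0819), that on Pzp without control liver 3, 4, 5 or 6 or tumour-bearing WT liver 3, 4 or 6 (adjusted p from 0.055 to 0.0921), and that on Cfi (complement factor I) without control liver 3, 4, 5 or 6, tumour-bearing WT liver 3, 4 or 6 or Stat3-deleted liver 1 (adjusted p from 0.0502 to 0.0919). The call on Mug2 ended in 12 of the 18 fits, without control liver 1, 3, 4, 5 or 6, tumour-bearing WT liver 3, 4 or 6 or Stat3-deleted liver 1, 2, 3 or 4 (adjusted p from 0.0509 to 0.126), and that on C8a in 12, without control liver 1, 2, 3, 4, 5 or 6, tumour-bearing WT liver 3, 4 or 5 or Stat3-deleted liver 1, 2 or 3 (adjusted p from 0.0537 to 0.14). Albumin, the most abundant plasma protein, was not called: Alb had 18535 to 51529 CPM in control livers (median 33259) and 28995 to 67659.9 CPM in tumour-bearing livers (median 35415), a log2 fold change of 0.34 ± 0.24 (adjusted p = 0.52).

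Over 8 lists of ER translocation, glycosylation, folding, quality control and vesicle transport, 3 of 274 measured genes of the machinery that folds and carries secreted proteins were called (1.09%, against 2.25% of all genes tested), and the median log2 fold change was 0.05 (-0.14 with library totals). Their share was 2.79% ± 0.520 of the counts in control livers and 2.44% ± 0.345 in tumour-bearing livers (SD, n = 6), with medians of 2.49% and 2.51%. Over counts without the acute-phase genes the means were 2.95% in control and 2.84% in tumour-bearing livers, and the medians 2.61% and 2.86%. With and without the acute-phase genes, the mean was lower and the median higher in tumour-bearing livers. The order of the groups thus differs between mean and median. B4galt6, a Golgi galactosyltransferase that makes lactosylceramide, rose by 1.63 ± 0.27 (adjusted p = 0.000938), with 1.76 to 4.66 CPM in control livers (median 2.86) and 5.40 to 13.7 CPM in tumour-bearing livers (median 9.04), and all 6 tumour-bearing livers lay above the controls. Qsox1, a sulfhydryl oxidase of the Golgi, was called at an adjusted p of 0.0497, and the call ended in 14 of the 18 fits, without control liver 1, 2, 3 or 4, tumour-bearing WT liver 3, 4, 5 or 6 or Stat3-deleted liver 1, 2, 3, 4, 5 or 6 (adjusted p from 0.0535 to 0.132). Chac1, an enzyme of glutathione breakdown induced by amino acid and ER stress, had 0.422 to 3.15 CPM in control livers (median 2.55) and 2.37 to 19 CPM in tumour-bearing livers (median 7.04), and its call ended without control liver 1, 2 or 4 or tumour-bearing WT liver 3, 4 or 6 (adjusted p from 0.0578 to 0.105). Hspa5 (BiP), the main ER chaperone, had 1253 to 5234 CPM in control livers (median 1477) and 856 to 2938 CPM in tumour-bearing livers (median 1863). Its log2 fold change was -0.47 ± 0.34 (adjusted p = 0.52), and became 0.15 with limma voom and 0.69 within livers 1 to 3. Surf4, a cargo receptor for ER exit, had 79.8 to 108 CPM in control livers (median 88.3) and 93.2 to 141 CPM in tumour-bearing livers (median 127), a log2 fold change of 0.39 ± 0.13 (adjusted p = 0.115).

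St3gal5, the synthase of the ganglioside GM3, stood at 100.1 to 218 CPM in control livers (median 128) and 93.2 to 1145 CPM in tumour-bearing livers (median 136), and the high value was that of tumour-bearing liver 6. Its log2 fold change of 0.99 ± 0.47 (adjusted p = 0.298) became -0.24 without that liver. Of 78 ribosomal protein genes 0 was called, though 74 had a positive log2 fold change, against 5673 of all 11218 genes. Their median was 0.30 (0.09 with library totals). Rps13, which had the smallest p of the list, had 426 to 530.2 CPM in control livers (median 503) and 444 to 873 CPM in tumour-bearing livers (median 656), a log2 fold change of 0.41 ± 0.15 (adjusted p = 0.167). Among 50 translation factors and tRNA synthetases 1 was called (2%, against 2.25% of all genes tested). This was Eif6, a factor of ribosome maturation. Its change was 0.56 ± 0.15 (adjusted p = 0.046), and the call ended in 13 of the 18 fits, without control liver 1, 2, 3, 4 or 6, tumour-bearing WT liver 3, 4, 5 or 6 or Stat3-deleted liver 1, 2, 3 or 4 (adjusted p from 0.0539 to 0.156). Of 37 proteasome subunits 0 was called, with a median of 0.05 (-0.13 with library totals); Psmb4 had a log2 fold change of 0.38 ± 0.14 (adjusted p = 0.174). At an unadjusted p under 0.05, edgeR counted 18 ribosomal protein genes and 1 proteasome gene, and DESeq2 and limma voom called 0 of either.

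**Figure D3:**
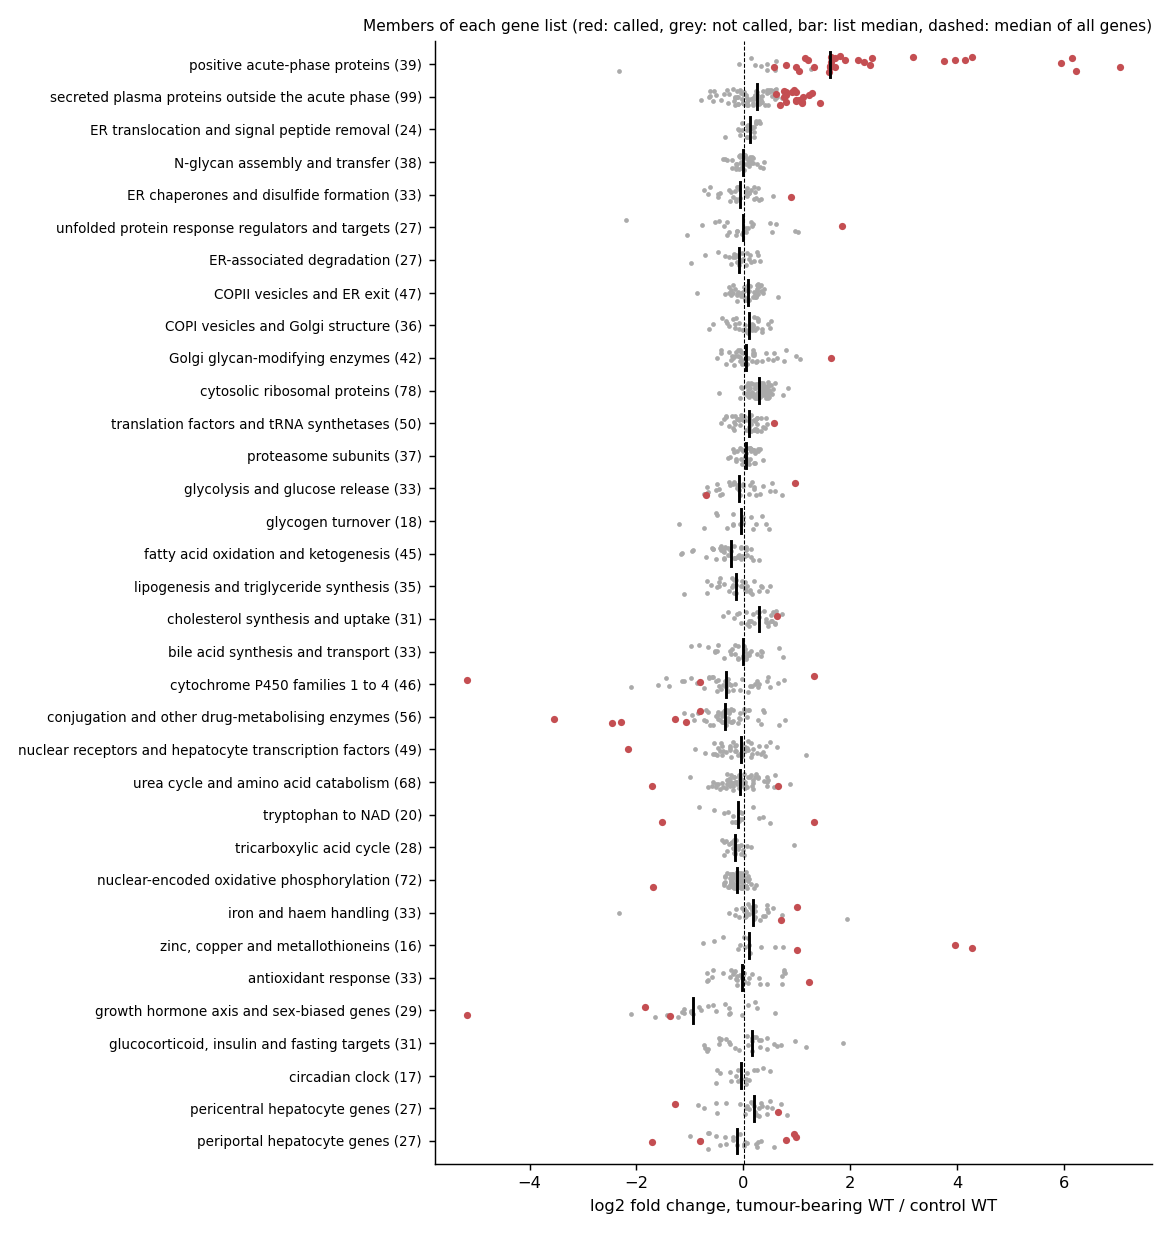
Log2 fold change (x axis, tumour-bearing WT over control WT) of every measured member of 34 gene lists (y axis, number of measured members in brackets). Red points are called genes, grey points are not called, black bars are list medians and the dashed line is the median of all genes; the acute-phase list stands to the right, the secretory machinery lists centre near 0, and the P450, conjugation and sex-biased lists have medians below 0.

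Receptors and feedback inhibitors of cytokine signalling were both among the called genes. In the IL-6 and STAT3 list 7 of 30 measured genes rose and 1 fell (26.7% called, against 2.25% of all genes tested). The median was 0.31 (0.05 with library totals). Stat3 itself had 93.4 to 147 CPM in control livers (median 109.8) and 163 to 264 CPM in tumour-bearing livers (median 214), a rise of 0.93 ± 0.14 (adjusted p = 0.000303), under 2-fold and without overlap. Il6st, which encodes gp130, had 41 to 60.1 CPM in control livers (median 46.6) and 61 to 101 CPM in tumour-bearing livers (median 75.9), a rise of 0.69 ± 0.14 (adjusted p = 0.0061). With library totals its adjusted p was 0.0674. Lifr, the receptor chain that pairs with gp130 for leukaemia inhibitory factor, fell: it had 149 to 266 CPM in control livers (median 195) and 51.6 to 147 CPM in tumour-bearing livers (median 103), a log2 fold change of -0.95 ± 0.23 (adjusted p = 0.0278). The groups did not overlap, but the call ended without control liver 4 or 6 or tumour-bearing WT liver 3, 4 or 6 (adjusted p from 0.055 to 0.0805). Junb, a transcription factor of the AP-1 family, rose by 1.76 ± 0.23 (adjusted p = 5.37e-05), with 18.5 to 28.9 CPM in control livers (median 24.5) and 48.2 to 144 CPM in tumour-bearing livers (median 74.9). Ier3, an early response gene, rose by 1.54 ± 0.31 (adjusted p = 0.00723), with 5 of 6 tumour-bearing livers above every control. The calls on Fos and Il1r1 ended in 11 and 13 of the 18 fits: Fos without control liver 1, 2, 3, 4, 5 or 6, tumour-bearing WT liver 3 or 6 or Stat3-deleted liver 2, 3 or 4 (adjusted p from 0.0501 to 0.256), and Il1r1 without control liver 1, 2, 3, 4 or 6, tumour-bearing WT liver 2, 3, 4 or 6 or Stat3-deleted liver 1, 2, 3 or 5 (adjusted p from 0.0559 to 0.125).

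Tnfrsf1a, a receptor for tumour necrosis factor, had 55.4 to 85.6 CPM in control livers (median 80.5) and 104 to 178 CPM in tumour-bearing livers (median 128), a rise of 0.80 ± 0.15 (adjusted p = 0.00389). Il13ra1, a receptor chain for IL-13 and IL-4, had 14 to 28.3 CPM in control livers (median 22.5) and 36.2 to 53.5 CPM in tumour-bearing livers (median 48.5), a rise of 1.04 ± 0.16 (adjusted p = 0.000418). No liver of either group overlapped with the other group for these 2 genes. In the NF-kB and IL-1 list 3 of 39 measured genes rose (Tnfrsf1a, Il1r1 and Il18bp), 0 fell and 36 did not pass. The share called was 7.69%, against 2.25% of all genes tested. Of 37 interferon response genes 0 was called, by edgeR, DESeq2 or limma voom, and 1 reached an unadjusted p under 0.05. Among 24 measured chemokines and cytokines 4 rose (16.7% called). Cxcl1, a neutrophil attractant, had 3.38 to 6.49 CPM in control livers (median 5.38) and 23.4 to 168 CPM in tumour-bearing livers (median 84.3), a rise of 4.04 ± 0.42 (adjusted p = 2.88e-06). Ccl6, a chemokine of myeloid cells, rose by 1.67 ± 0.34 (adjusted p = 0.00774), and Ccl24 by 1.12 ± 0.27 (adjusted p = 0.0244). The Ccl24 call ended without control liver 2, 5 or 6 or tumour-bearing WT liver 3 or 4 (adjusted p from 0.0563 to 0.0909).

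Over 19 lists of metabolism, transport of metals and their regulators, 648 genes were measured, of which 10 rose and 15 fell. The share called was 3.86%, against 2.25% of all genes tested, and the median log2 fold change was -0.10 (-0.30 with library totals). Genes of lactate, iron and zinc handling were among those that rose, and further metabolic genes rose outside the lists. Isyna1, which makes inositol phosphate from glucose 6-phosphate, had 7.71 to 25.6 CPM in control livers (median 19.7) and 70.7 to 405 CPM in tumour-bearing livers (median 107), a rise of 3.30 ± 0.39 (adjusted p = 1.84e-05). Ldha, lactate dehydrogenase A, had 383 to 593 CPM in control livers (median 435) and 656 to 1364 CPM in tumour-bearing livers (median 808), a rise of 0.97 ± 0.17 (adjusted p = 0.00181), and was the only gene to rise among 33 of glycolysis and glucose release. In that list Slc2a2, the main glucose transporter of hepatocytes, fell by 0.71 ± 0.18 log2 units (adjusted p = 0.0417), a call that ended in 11 of the 18 fits, without control liver 1, 3, 4, 5 or 6, tumour-bearing WT liver 2, 3 or 4 or Stat3-deleted liver 1, 3 or 5 (adjusted p from 0.0501 to 0.119). Slc13a5, the citrate transporter, rose from a low level, with 1.09 to 2.78 CPM in control livers (median 2.05) and 4.47 to 27.4 CPM in tumour-bearing livers (median 11), by 2.65 ± 0.53 (adjusted p = 0.00703). Slc13a3, a transporter of dicarboxylates, had 8.38 to 21.7 CPM in control livers (median 15.6) and 18.7 to 102 CPM in tumour-bearing livers (median 61.3), a rise of 1.93 ± 0.33 (adjusted p = 0.00163). Isyna1, Slc13a5 and Slc13a3 stand in none of the lists.

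Of 33 genes of iron and haem handling 2 rose and 0 fell (6.06% called, against 2.25% of all genes tested). In that list 27 members had a positive and 6 a negative log2 fold change. The lowest was -2.34, and 1 member was lower at an unadjusted p under 0.05 in edgeR. Tfr2, an iron-sensing receptor of hepatocytes, had 159 to 189 CPM in control livers (median 173) and 203 to 404 CPM in tumour-bearing livers (median 269), a rise of 0.71 ± 0.14 (adjusted p = 0.0061). Slc39a14, an importer of zinc and non-transferrin iron, had 13.3 to 25.4 CPM in control livers (median 23.5) and 24.8 to 65 CPM in tumour-bearing livers (median 40.4), a rise of 1.00 ± 0.22 (adjusted p = 0.013). It was 1 of 3 higher genes among 16 of zinc and copper handling (18.8% called), with the metallothioneins Mt1 and Mt2, which bind these metals. Mt1 had 41.6 to 1008 CPM in control livers (median 124) and 970.1 to 11897 CPM in tumour-bearing livers (median 2512), a rise of 3.96 ± 0.78 (adjusted p = 0.0061), and control liver 2 was the high control. Mt2 had 13.3 to 471 CPM in control livers (median 60.0) and 526 to 8146 CPM in tumour-bearing livers (median 1456), a rise of 4.27 ± 0.82 (adjusted p = 0.00469). Cyp3a13, a drug-metabolising P450, was the only gene of its 46-member list to rise: it had 135 to 243 CPM in control livers (median 173) and 315 to 870.2 CPM in tumour-bearing livers (median 365), a log2 fold change of 1.33 ± 0.21 (adjusted p = 0.000541). Nnmt, which methylates nicotinamide, rose by 1.32 ± 0.30 (adjusted p = 0.0181), and the call ended without control liver 1 or 4 (adjusted p = 0.0524 each). Aldh1a3, a retinaldehyde dehydrogenase, rose by 2.57 ± 0.38 (adjusted p = 0.000266) from a level at or under 2.39 CPM in every control liver.

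Drug conjugation held 6 of the 15 lower metabolic genes. Of 56 conjugation genes 6 fell and 0 rose (10.7% called, against 2.25% of all genes tested). The list's median was -0.35 (-0.53 with library totals), and 45 members had a negative log2 fold change. Gsta2, a glutathione transferase, had 15.5 to 111 CPM in control livers (median 32.7) and 1.44 to 15.1 CPM in tumour-bearing livers (median 8.11), a drop of 2.29 ± 0.47 log2 units (adjusted p = 0.00788). Ugt2b37 and Ugt2b38, near-identical glucuronosyltransferases whose reads may be shared, fell by 2.45 ± 0.50 log2 units (adjusted p = 0.00781) and 3.55 ± 0.75 log2 units (adjusted p = 0.0102). Ugt2b37 had 3.59 to 23.1 CPM in control livers (median 9.38) and 0 to 3.82 CPM in tumour-bearing livers (median 2.64), with 5 of 6 tumour-bearing livers below every control. Neither passed with limma voom, at adjusted p of 0.0757 and 0.126. The other 3 calls depended on single libraries. Ces2a, a carboxylesterase, had 224 to 371 CPM in control livers (median 264) and 83.9 to 222 CPM in tumour-bearing livers (median 176), and its call ended without control liver 1, 2, 4 or 5 or tumour-bearing WT liver 3, 4 or 6 (adjusted p from 0.0518 to 0.0989). That on Gstm3 ended without control liver 2, 3 or 6, tumour-bearing WT liver 3, 4 or 6 or Stat3-deleted liver 3 or 5 (adjusted p from 0.0535 to 0.118), and that on Gsta4 in 13 of the 18 fits, without control liver 1, 2, 3, 4, 5 or 6, tumour-bearing WT liver 3, 4 or 6 or Stat3-deleted liver 1, 2, 3 or 5 (adjusted p from 0.0504 to 0.107).

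Etnppl (chromosome 3, 130617448 to 130635750 on mm10), which degrades phosphoethanolamine, had 106 to 225 CPM in control livers (median 129) and 14.3 to 83.1 CPM in tumour-bearing livers (median 35). It fell by 1.71 ± 0.34 log2 units (adjusted p = 0.0061), and the groups did not overlap. Acmsd, which steers tryptophan breakdown away from NAD synthesis, had 8.47 to 20.4 CPM in control livers (median 12.2) and 1.97 to 9.22 CPM in tumour-bearing livers (median 4.20), a drop of 1.53 ± 0.32 log2 units (adjusted p = 0.0101). Ethe1, a mitochondrial enzyme of sulfide breakdown, had 107 to 194 CPM in control livers (median 129.7) and 61.5 to 106 CPM in tumour-bearing livers (median 76), a drop of 0.79 ± 0.16 log2 units (adjusted p = 0.00686), smaller than 2-fold. Srd5a1, a steroid 5-alpha-reductase, had 48.5 to 68.3 CPM in control livers (median 56.6) and 11.3 to 40.3 CPM in tumour-bearing livers (median 24.8), a drop of 1.13 ± 0.23 log2 units (adjusted p = 0.00739). Cox7a1, a subunit of cytochrome c oxidase, fell by 1.70 ± 0.38 log2 units (adjusted p = 0.0145), with 2.92 to 11.1 CPM in control livers (median 5.89) and 0.302 to 3.80 CPM in tumour-bearing livers (median 1.89). It was the only 1 called of 72 oxidative phosphorylation genes (1.39%, against 2.25% of all genes tested). With the 2 WT groups alone its adjusted p was 0.0615. That list's median was -0.13 (-0.32 with library totals), with 57 members negative, and its share was 2.54% ± 0.162 of the counts in control livers and 2.06% ± 0.283 in tumour-bearing livers (SD, n = 6). Over counts without the acute-phase genes the share was 2.68% and 2.39%, with 4 in place of 5 tumour-bearing livers below every control. By summed CPM 3 lay below every control.

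Cytochrome P450 genes of families 1 to 4 took 1.61% ± 0.106 of the counts in control livers and 1.19% ± 0.275 in tumour-bearing livers (SD, n = 6), and all 6 tumour-bearing livers lay below the lowest control. Over counts without the acute-phase genes 4 did. By summed CPM, 3 tumour-bearing livers lay below every control and 1 above every control. The median over the list was -0.32 (-0.50 with library totals), with 33 of 46 members negative. Cyp2f2, a periportal P450, had 867.6 to 1289 CPM in control livers (median 971) and 351 to 909.6 CPM in tumour-bearing livers (median 551) and fell by 0.81 ± 0.19 log2 units (adjusted p = 0.0237). The call ended without control liver 6 or tumour-bearing WT liver 3 or 4 (adjusted p from 0.0567 to 0.0728). Cyp2e1, which metabolises ethanol, had 1216 to 2318 CPM in control livers (median 1621) and 1419 to 5344 CPM in tumour-bearing livers (median 1882), a log2 fold change of 0.50 ± 0.27 (adjusted p = 0.365), with tumour-bearing liver 6 far above the rest. Cyp2a4 was also called lower, but its level was 137 CPM in control liver 2 and at most 2.58 CPM in the other 5 controls, and its adjusted p without control liver 2 was 0.816. The call ended in 9 of the 18 fits, without control liver 2, tumour-bearing WT liver 2, 3, 4, 5 or 6 or Stat3-deleted liver 1, 2 or 3 (adjusted p from 0.0531 to 0.816).

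Several metabolic lists of 17 to 45 genes held 0 calls in edgeR, where 2.25% of all genes tested were called and 16.2% had an unadjusted p under 0.05; a count of 0 in so short a list is near that background. Of 45 genes of fatty acid oxidation and ketogenesis, 35 had a negative log2 fold change and the median was -0.23 (-0.41 with library totals). An unadjusted p under 0.05 was reached by 10, and DESeq2 called 3 and limma voom 2. Acsl1, which activates long-chain fatty acids, had 744 to 904 CPM in control livers (median 813) and 232 to 709 CPM in tumour-bearing livers (median 563), a log2 fold change of -0.70 ± 0.20 (adjusted p = 0.0633). All 6 tumour-bearing livers lay below the lowest control, and with library totals the adjusted p was 0.0206. Acot1, an acyl-CoA thioesterase, had a log2 fold change of -1.15 ± 0.33 (adjusted p = 0.0727). Of 33 bile acid genes the count was 0, with 10 at an unadjusted p under 0.05, 2 called by DESeq2 and 1 by limma voom. Abcb11, the bile salt export pump, had 258 to 306 CPM in control livers (median 264) and 106 to 246 CPM in tumour-bearing livers (median 192), a log2 fold change of -0.54 ± 0.17 (adjusted p = 0.0966), again without overlap of the groups. Glycogen turnover (18 genes), the tricarboxylic acid cycle (28), lipogenesis (35), the circadian clock (17) and targets of glucocorticoid, insulin and fasting (31) held 0 calls as well. At an unadjusted p under 0.05 these had 4, 2, 4, 3 and 5 genes, DESeq2 called 1, 0, 2, 0 and 1, and limma voom 1, 0, 2, 0 and 0. Ugp2, which makes UDP-glucose, had 127 to 242 CPM in control livers (median 173) and 62.9 to 159 CPM in tumour-bearing livers (median 102), a log2 fold change of -0.73 ± 0.20 (adjusted p = 0.0534). Mlxipl, the transcription factor ChREBP, had a log2 fold change of -0.61 ± 0.17 (adjusted p = 0.067). Cholesterol synthesis and uptake had a median of 0.29 (0.07 with library totals), with 25 of 31 members positive and 1 called. That gene, Cyp51, rose by 0.62 ± 0.16 (adjusted p = 0.0405), and its call ended in 11 of the 18 fits, without control liver 2, 3, 4, 5 or 6, tumour-bearing WT liver 3, 4 or 6 or Stat3-deleted liver 1, 2 or 3 (adjusted p from 0.0516 to 0.135).

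Sex-biased genes under growth hormone control had the lowest list median, -0.93 (-1.05 with library totals), with 25 of 29 members negative, 3 called lower (Mup20, Mup21 and Cyp2a4) and 0 higher. The share called was 10.3%, against 2.25% of all genes tested. The list pools male- and female-biased genes, and Cyp2a4, a female-biased gene with the list's lowest value, had an adjusted p of 0.816 without control liver 2. The Mup genes, which encode the major urinary proteins and share most of their sequence, took 0.935% ± 0.283 of the counts in control livers and 0.523% ± 0.285 in tumour-bearing livers (SD, n = 6). Mup20 had 863 to 2999.9 CPM in control livers (median 2332) and 134 to 1337 CPM in tumour-bearing livers (median 567), a drop of 1.83 ± 0.44 log2 units (adjusted p = 0.0244), but the call ended without control liver 4, 5 or 6 or tumour-bearing WT liver 3 or 6 (adjusted p from 0.0514 to 0.0597). That on Mup21 ended in 11 of the 18 fits, without control liver 1, 4, 5 or 6, tumour-bearing WT liver 3, 4 or 6 or Stat3-deleted liver 1, 2, 3 or 5 (adjusted p from 0.0504 to 0.125). Elovl3, a fatty acid elongase with higher levels in males, had 29.3 CPM in control liver 2 and 490.4 to 1268 CPM in the other 5 controls. In tumour-bearing livers it ranged from 26.6 CPM in liver 6 and 55.2 CPM in liver 4 to 921 CPM in liver 5, and its log2 fold change was -1.10 ± 0.64 (adjusted p = 0.41). Hsd3b5, a male-biased steroid dehydrogenase, was low in the same livers, with 4.93 CPM in control liver 2, 4.08 CPM in tumour-bearing liver 6 and 223 CPM in tumour-bearing liver 5. Its log2 fold change was -0.56 ± 0.61 (adjusted p = 0.7).

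Zonation genes were called in both directions. Of 27 periportal genes 3 rose (Rnase4, Vtn and Ctsc) and 2 fell (Etnppl and Cyp2f2). The share called was 18.5%, against 2.25% of all genes tested, and the median was -0.12 (-0.33 with library totals). Of 27 pericentral genes 1 rose and 1 fell (7.41% called), with a median of 0.21 (-0.02 with library totals). The gene that rose, Glul (glutamine synthetase), changed by 0.65 ± 0.17 (adjusted p = 0.0368), a call that ended in 10 of the 18 fits, without control liver 1, 2, 3, 4 or 5, tumour-bearing WT liver 3, 4 or 6 or Stat3-deleted liver 1 or 2 (adjusted p from 0.055 to 0.11). The gene that fell was Gstm3. The call on Ctsc ended without control liver 4 or 5 or tumour-bearing WT liver 3 (adjusted p from 0.053 to 0.0597). Of 49 nuclear receptors and hepatocyte transcription factors 1 was called, Onecut1 (2.04% of the list). Onecut1 had 4.36 to 89.9 CPM in control livers (median 15.4) and 2.89 to 11.9 CPM in tumour-bearing livers (median 6.36). The call ended in 8 of the 18 fits, without control liver 5 or 6, tumour-bearing WT liver 2, 3, 4 or 5 or Stat3-deleted liver 2 or 3 (adjusted p from 0.0533 to 0.164).

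Neutrophil markers had the highest median among 13 cell type lists. Of 23 markers with counts given, only 11 passed the filter on low counts. A gene near 0 in controls can pass that filter through the tumour-bearing livers alone, so the list's count and median are in part set by it. Among the 11, 6 rose and 0 fell (54.5% called, against 2.25% of all genes tested). The median log2 fold change was 1.56 (1.34 with library totals). S100a8 and S100a9 encode the 2 chains of calprotectin. S100a8 had 9.06 to 23.8 CPM in control livers (median 12) and 31.5 to 192 CPM in tumour-bearing livers (median 71.2), a log2 fold change of 2.67 ± 0.39 (adjusted p = 0.000197). S100a9 had 8.11 to 23.3 CPM in control livers (median 11.4) and 28.4 to 135 CPM in tumour-bearing livers (median 70.2), a log2 fold change of 2.54 ± 0.35 (adjusted p = 0.000141). Retnlg, a resistin-like protein of neutrophils, rose by 1.93 ± 0.40 (adjusted p = 0.00803), and Ngp, a granule protein, by 3.69 ± 0.81 (adjusted p = 0.0141), a call that ended without tumour-bearing WT liver 3 (adjusted p = 0.0597) and with limma's voom (adjusted p = 0.0593). Prtn3, which encodes proteinase 3, stood far out, with 0 to 1.55 CPM in control livers (median 0.696) and 53.7 to 142 CPM in tumour-bearing livers (median 73.4) and a log2 fold change of 6.99 ± 0.39 (adjusted p = 6.9e-11). Wfdc21, which made up most of the list's sum, rose by 0.73 ± 0.15 (adjusted p = 0.00781), but not with library totals (adjusted p = 0.0526) or with the 2 WT groups alone (adjusted p = 0.0537). Its mean in control livers was 3214 CPM, against 14.2 CPM for S100a8 and 13.6 CPM for S100a9. The 6 calls include Wfdc21 and Prtn3, and whether the RNA of these genes came from neutrophils was not tested. Summed without Wfdc21, the markers came to 40.3 to 97.2 CPM in control and 163 to 556 CPM in tumour-bearing livers. Without Prtn3 as well, they came to 40.3 to 95.6 and 107 to 443 CPM, again without overlap. These sums were chosen after the data were seen.

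Macrophage markers rose in part. Of 18 Kupffer cell markers 4 rose and 0 fell (22.2% called, against 2.25% of all genes tested), with a median of 0.71 (0.49 with library totals). The summed level was 764 to 1559.7 CPM in control livers and 1221 to 2520.2 CPM in tumour-bearing livers, with 3 tumour-bearing livers above every control. Clec1b had 7.98 to 17.5 CPM in control livers (median 13.5) and 20.1 to 41.8 CPM in tumour-bearing livers (median 25.2), a rise of 1.04 ± 0.22 (adjusted p = 0.00906), without overlap. The calls on the other 3 were less firm. Vsig4, a complement receptor of Kupffer cells, had 22.8 to 56.5 CPM in control livers (median 44.5) and 67.4 to 121 CPM in tumour-bearing livers (median 72), and its call ended without control liver 1, 4 or 6 or tumour-bearing WT liver 3 or 4 (adjusted p from 0.0572 to 0.0813). Cd163, the haemoglobin scavenger receptor, rose by 1.25 ± 0.29 (adjusted p = 0.0237), a call that ended without control liver 2, 4 or 6 or tumour-bearing WT liver 3 or 4 (adjusted p from 0.0547 to 0.095). Il18bp, a secreted decoy for IL-18, rose by 1.27 ± 0.30 (adjusted p = 0.0237), a call that ended without control liver 1, 4, 5 or 6 or tumour-bearing WT liver 3 or 4 (adjusted p from 0.0591 to 0.0871). Of 25 monocyte and macrophage markers 4 rose and 0 fell (16% called), with a median of 0.71 (0.51 with library totals) and 24 members positive. The 4 were Fcgr3, an Fc receptor, Msr1, a scavenger receptor, Trem2, a lipid receptor, and Fcer1g, the chain through which Fc receptors signal. The Fcgr3 call ended without control liver 4 or 6 or tumour-bearing WT liver 3 or 4 (adjusted p from 0.05 to 0.067) and the Msr1 call without control liver 2, 5 or 6 or tumour-bearing WT liver 2, 3 or 4 (adjusted p from 0.0518 to 0.0798). The Trem2 call ended without control liver 1, 4, 5 or 6 or tumour-bearing WT liver 3, 4 or 6 (adjusted p from 0.0585 to 0.0917), and the Fcer1g call in 13 of the 18 fits, without control liver 1, 2, 4, 5 or 6, tumour-bearing WT liver 3, 4, 5 or 6 or Stat3-deleted liver 1, 2, 3 or 4 (adjusted p from 0.0523 to 0.131). Fcgr3 had 16.5 to 29.9 CPM in control livers (median 19.2) and 21.7 to 63 CPM in tumour-bearing livers (median 38.5), a log2 fold change of 1.00 ± 0.23 (adjusted p = 0.0181).

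Lymphoid and dendritic markers gave 0 calls in edgeR, DESeq2 and limma voom, but the lists are short and 2.25% of all genes tested were called, so a count of 0 is near the background. Among 9 measured T and NK cell markers, 7 B and plasma cell markers and 15 dendritic cell and MHC class II markers, 0, 0 and 1 reached an unadjusted p under 0.05. The T and NK markers summed to 11.1 to 99.7 CPM in control livers and 17.9 to 44.2 CPM in tumour-bearing livers, and the high control was liver 3. Liver endothelial markers also had 0 calls of 30, with 7 at an unadjusted p under 0.05, 0 by DESeq2 and 0 by limma voom, and summed to 978 to 1177 CPM in control livers and 1022 to 1238 CPM in tumour-bearing livers. Of 34 stellate cell and matrix genes 3 rose and 1 fell (11.8% called, against 2.25% of all genes tested). Timp1, an inhibitor of matrix proteases, had 0 to 1.04 CPM in control livers (median 0.490) and 1.53 to 10.9 CPM in tumour-bearing livers (median 5.42), a rise of 3.56 ± 0.54 (adjusted p = 0.000314). Mgp, matrix Gla protein, had 4.11 to 12.1 CPM in control livers (median 8.79) and 13.7 to 52.3 CPM in tumour-bearing livers (median 28.9), a rise of 1.74 ± 0.30 (adjusted p = 0.00181). Tgfbi rose by 0.85 ± 0.17 (adjusted p = 0.00723), and none of the 3 had overlapping groups. With library totals the adjusted p of Tgfbi was 0.0526. Timp3 fell by 0.62 ± 0.16 log2 units (adjusted p = 0.0423), a call that ended in 11 of the 18 fits, without control liver 1, 2, 4, 5 or 6, tumour-bearing WT liver 1, 3, 4 or 5 or Stat3-deleted liver 3 or 5 (adjusted p from 0.052 to 0.123). Dcn, which encodes decorin, had a log2 fold change of 0.40 ± 0.18 (adjusted p = 0.261).

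Of 12 biliary markers Sox9 rose and Onecut1 fell (16.7% called, against 2.25% of all genes tested). Sox9, a transcription factor of bile duct cells, had 21.5 to 38.7 CPM in control livers (median 22.5) and 28 to 98.3 CPM in tumour-bearing livers (median 62.2), a rise of 1.31 ± 0.24 (adjusted p = 0.00276). The markers of pancreatic tumour and acinar cells bear on whether tumour tissue was in the libraries. Of 27 listed 6 passed the filter on low counts, and 0 was called by edgeR or limma voom and 1 by DESeq2, with 3 at an unadjusted p under 0.05. Tff1, Muc5ac, Krt5, Prss1, Amy2a5, Reg1 and Clps were at 0 in all 12 livers. So were the ribosomal protein genes Rpl26 and Rpl30, the plasma protein gene Apoc2 and the oxidative phosphorylation gene Ndufs5. A 0 in these counts therefore cannot be read as absence of the RNA. The list summed to 84.6 to 146 CPM in control livers and 102 to 139 CPM in tumour-bearing livers. S100a6 had 12.2 to 29.9 CPM in control livers (median 22.2) and 19.4 to 79.2 CPM in tumour-bearing livers (median 45), a log2 fold change of 1.14 ± 0.32 (adjusted p = 0.0659), and Cela1 -0.88 ± 0.31 (adjusted p = 0.142). Of 10 red cell and platelet markers 0 was called by edgeR or limma voom and 1 by DESeq2, with 2 at an unadjusted p under 0.05, and the 4 globin genes Hba-a1, Hba-a2, Hbb-bs and Hbb-bt are listed at 0 in all 12 livers. The part of any of these cell types in the changes of other genes was not tested.

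**Figure D4:**
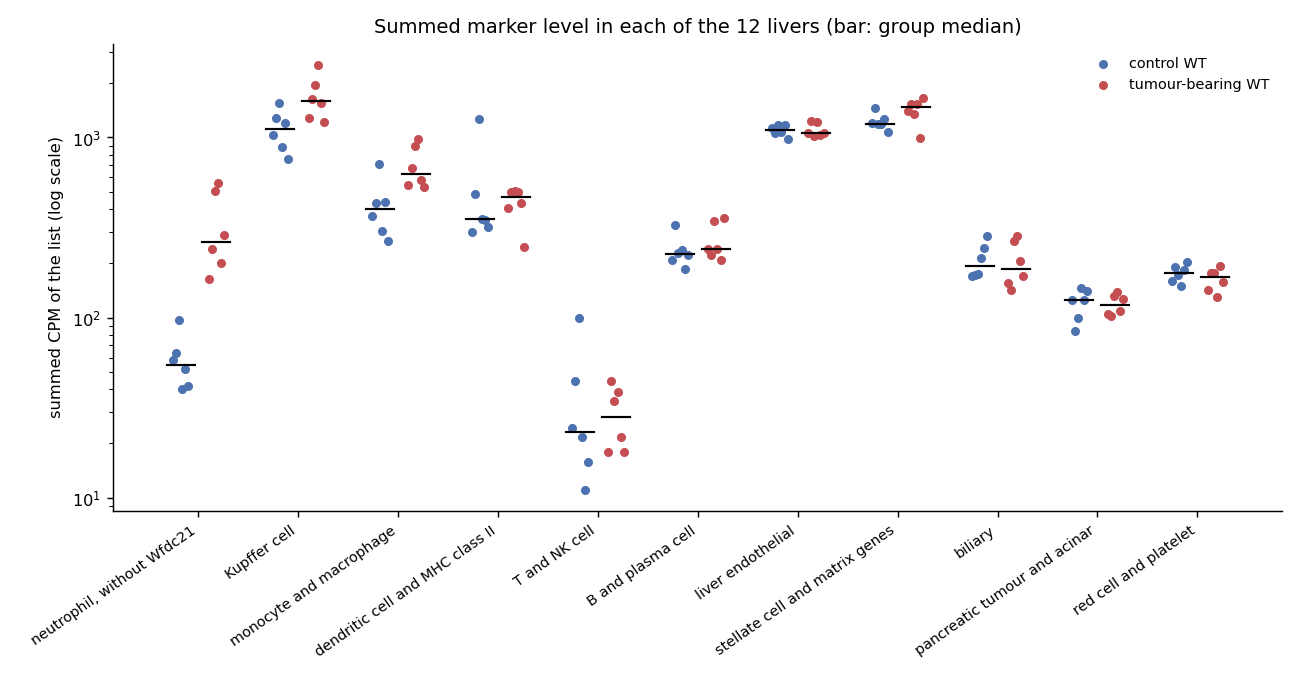
Summed CPM (y axis, log scale) of the marker genes of 11 cell types in each of the 6 control and 6 tumour-bearing WT livers, with bars at the group medians. The neutrophil sum, without Wfdc21, lies at 40.3 to 97.2 CPM in control and 163 to 556 CPM in tumour-bearing livers, while every other sum overlaps between the groups.

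Of 35 measured cell cycle genes 1 was called (2.86%, against 2.25% of all genes tested). Their median was 0.39 (0.18 with library totals), with 32 members positive. The called gene, Btg2, an antiproliferative early response gene, had 12.2 to 19.9 CPM in control livers (median 16.5) and 18.9 to 168 CPM in tumour-bearing livers (median 24.7), with the high value in tumour-bearing liver 6. Its call ended in 13 of the 18 fits, without control liver 1, 2, 3, 4, 5 or 6, tumour-bearing WT liver 3, 4 or 6 or Stat3-deleted liver 1, 2, 3 or 4 (adjusted p from 0.0535 to 0.158). Early response genes, which can also change while tissue is handled, included 5 higher genes of 25 (Fos, Fosl2, Junb, Ier3 and Btg2) and 0 lower. The share called was 20%. Fos had 0.676 to 2.60 CPM in control livers (median 1.19) and 1.71 to 39.7 CPM in tumour-bearing livers (median 3.60), again highest in tumour-bearing liver 6, and a log2 fold change of 2.66 ± 0.69 (adjusted p = 0.0415). Fosl2 rose by 0.95 ± 0.22 (adjusted p = 0.0237), a call that ended without control liver 1, 3 or 4 or tumour-bearing WT liver 3 or 6 (adjusted p from 0.0535 to 0.067). The part of handling in these values was not tested.

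Of the 252 called genes, 144 belonged to none of the lists, 106 of them higher and 38 lower. Dnajc12, a co-chaperone of the aromatic amino acid hydroxylases, had 5.06 to 12.6 CPM in control livers (median 10.5) and 32.6 to 182 CPM in tumour-bearing livers (median 84), a rise of 3.30 ± 0.33 (adjusted p = 2.5e-06). Fam25c had 63 to 116 CPM in control livers (median 86.2) and 159 to 655 CPM in tumour-bearing livers (median 377), a rise of 2.09 ± 0.29 (adjusted p = 0.000141). Prg4, lubricin, had 29.1 to 41.9 CPM in control livers (median 35.4) and 52.4 to 129 CPM in tumour-bearing livers (median 115), a rise of 1.55 ± 0.24 (adjusted p = 0.000456). In these 3 genes every tumour-bearing liver lay above every control. Slpi, a secreted inhibitor of leukocyte proteases, rose by 2.05 ± 0.43 (adjusted p = 0.0092), with 4 of 6 tumour-bearing livers above every control. Clca3a1 and Mustn1 rose by 1.56 ± 0.22 (adjusted p = 0.000152) and 1.47 ± 0.21 (adjusted p = 0.000197). Smaller but clear of overlap were Cml2, an N-acetyltransferase, with 142 to 200.5 CPM in control livers (median 178) and 256 to 321 CPM in tumour-bearing livers (median 276) and a rise of 0.70 ± 0.12 (adjusted p = 0.00217), Lpgat1, an acyltransferase of lysophospholipids, with a rise of 0.77 ± 0.15 (adjusted p = 0.00594), and Litaf, an endosomal protein, with a rise of 0.77 ± 0.15 (adjusted p = 0.00736). With library totals the adjusted p of Litaf was 0.0526.

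Tcea3, a transcription elongation factor, had 109 to 150.1 CPM in control livers (median 118) and 40.6 to 91.2 CPM in tumour-bearing livers (median 76.2), a drop of 0.78 ± 0.16 log2 units (adjusted p = 0.00733). Apol7a, of the apolipoprotein L family, had 148 to 211 CPM in control livers (median 180.0) and 78 to 137 CPM in tumour-bearing livers (median 107), a drop of 0.76 ± 0.16 log2 units (adjusted p = 0.00854). Neither had overlapping groups. Mcm10, a factor of DNA replication, had 46.5 to 202 CPM in control livers (median 79.3) and 26.6 to 60.6 CPM in tumour-bearing livers (median 40.1), a drop of 1.27 ± 0.26 log2 units (adjusted p = 0.00736), while most of the cell cycle list had positive values. Krt23, a keratin, fell by 3.22 ± 0.62 log2 units (adjusted p = 0.00469), from at least 1.92 CPM in every control liver to at most 1.18 CPM in any tumour-bearing one.

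**Figure D5:**
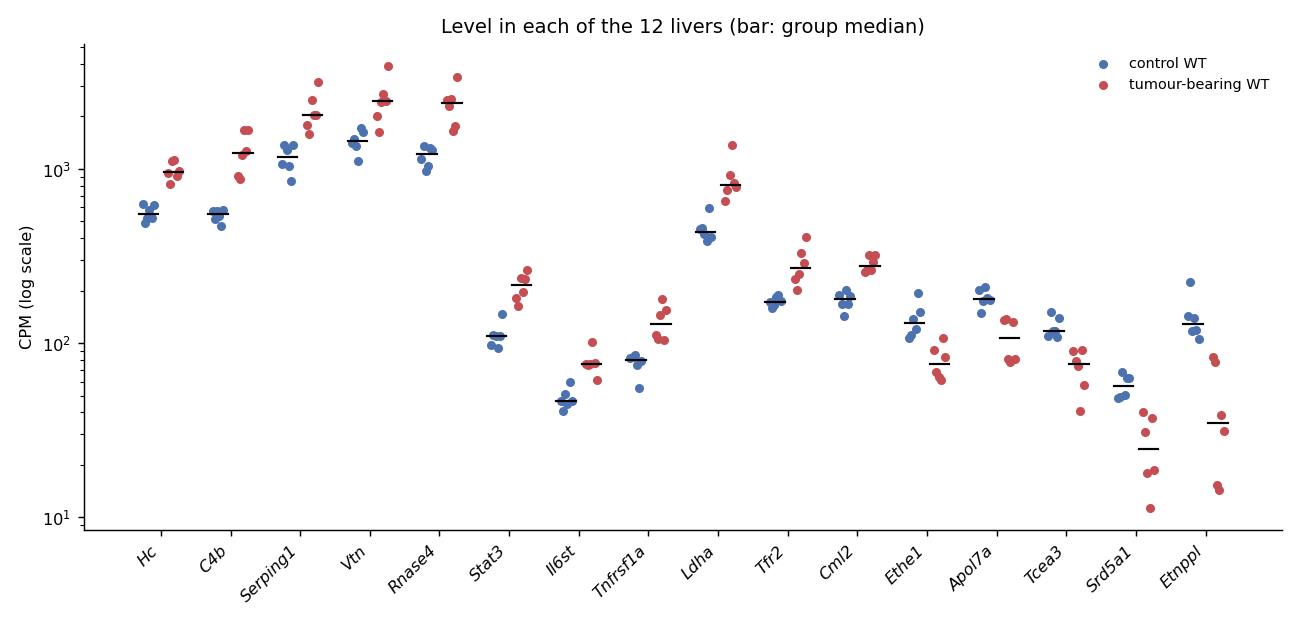
CPM (y axis, log scale) of 16 genes named in the text in each of the 6 control and 6 tumour-bearing WT livers, with bars at the group medians. From Hc to Cml2 the tumour-bearing livers are higher and from Ethe1 to Etnppl lower; only Vtn has overlapping groups.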

How the data were processed

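RNA of 18 livers, stored in TRIzol and extracted with RNeasy, was sequenced from the 3′ end with the QuantSeq 3′ FWD kit (Lexogen), per the labels' protocols. The authors deposited 1 table of raw counts per gene symbol, used as deposited. The submitters' processing notes name STAR and mm10. Not given in the sources used here: the STAR version, the counting tool, the annotation and strand use. Overlapping, antisense or near-identical genes may therefore share reads. Of 24421 symbols, 27 that had turned into dates (0.103% to 0.166% of a library's counts) were left out. Mitochondrially encoded genes were not analysed here. All columns were used.

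Counts were fitted with edgeR 4.0.16 (R 4.3.3): TMM scaling, filterByExpr, 1 coefficient per group over all 18 libraries (15 residual degrees of freedom), the two-sided quasi-likelihood test, and Benjamini-Hochberg adjustment over 11218 genes with a threshold of 0.05. Every adjusted p is from this test unless another is named. The biological coefficient of variation was 0.281. In simulated counts for 11218 genes with library sizes as here, 61 of 100 genes changed by 2-fold and 96 of 100 changed by 4-fold were recovered, and 4 unchanged genes were called. The changed genes were drawn from those with a mean of at least 1 CPM. The simulated counts had no shift in composition and no outlying liver, so the real rates may differ.

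The groups and gene lists were chosen with earlier results of these data known. Lists are described by their counts and medians, with no test. Named genes were, outside the acute-phase list and at 10 CPM or more, the called genes of smallest adjusted p in each direction, overall and under 2-fold, and from each list up to 3 called members, or up to 2 of smallest p where 0 was called, with its member of highest level. Genes outside this rule (among them Mup, Elovl3, Hsd3b5, Serpina3k and further called list members) were chosen after their values were seen. Gene positions and promoters came from RefSeq on GRCm38.p6, where 11194 of the 11218 genes tested (99.8%) were found.

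Alternatives were DESeq2 1.42.0, limma 3.58.1 (voom with quality weights), other scalings and filters, the 2 WT groups alone, the replicate number or the run of label numbers as a block, and the omission of each library in turn. Leaving out Stat3-deleted libraries, fits within each run and the neutrophil sums were added after the data were seen. Shares of counts carry 95% Wilson intervals for a single library, which cover counting error only. Python 3.11.15, pandas 2.3.3, numpy 2.4.6, scipy 1.17.1 and matplotlib 3.10.9 were used for summaries and plots.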

Additional observations from a re-analysis of the deposited data

Results flagged for a closer look

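For 300 sets of 6 livers (a gene, a marker sum or a share of counts in 1 group), the gap between the highest or lowest liver and its neighbour was set against the whole range. In 33 sets it passed Dixon's 95% limit. Chance gives about 1 in 20 for normally distributed values. The values here were not log-transformed, so that rate may not hold and the number of sets is a description. The sets share livers and genes, so they are not independent, and no explanation was tested.

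Tumour-bearing liver 6 was the high liver most often. Early response and stress genes stood out there, with Fos at 39.7 CPM (1.71 to 4.57 in the other 5), Btg2 at 168 CPM (18.9 to 43.9 in the other 5) and Chac1 at 19 CPM (2.37 to 8.52 in the other 5). Metabolic genes did too, with Cyp2e1 at 5344 CPM (1419 to 1932 in the other 5), Cyp3a13 at 870.2 CPM (315 to 417 in the other 5), Nnmt at 973 CPM (222 to 469.7 in the other 5) and Lpgat1 at 379 CPM (216 to 277 in the other 5). The same liver had St3gal5 at 1145 CPM (93.2 to 164 in the other 5), Serpina3k at 26677 CPM (11126 to 15965 in the other 5) and Mt2 at 8146 CPM (526 to 2742 in the other 5), and its cell cycle genes summed to 1023 CPM (418 to 636 in the other 5).

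Control liver 2 was the high control for Cyp2a4 at 137 CPM (0.137 to 2.58 in the other 5), Gsta2 at 111 CPM (15.5 to 36.6 in the other 5), Etnppl at 225 CPM (106 to 144 in the other 5) and Abcb11 at 306 CPM (258 to 271 in the other 5). It was also high for Mt1 at 1008 CPM (41.6 to 257 in the other 5), Mt2 at 471 CPM (13.3 to 168 in the other 5) and Ngp at 0.986 CPM (0 to 0.274 in the other 5). Its B and plasma cell markers summed to 326 CPM (186 to 238 in the other 5) and its cell cycle genes to 701 CPM (372 to 461 in the other 5).

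Control liver 3 was high in immune cell markers. Its dendritic cell and MHC class II markers summed to 1270.3 CPM (299 to 484 in the other 5) and its T and NK cell markers to 99.7 CPM (11.1 to 44.2 in the other 5), with Fcer1g at 43.5 CPM (11.4 to 20.7 in the other 5) and Sox9 at 38.7 CPM (21.5 to 25.0 in the other 5). Tumour-bearing liver 4 was high in macrophage genes and Ldha, with Clec1b at 41.8 CPM (20.1 to 27.4 in the other 5), Cd163 at 81 CPM (23.8 to 43.3 in the other 5), Ccl6 at 229 CPM (48.0 to 114 in the other 5) and Ldha at 1364 CPM (656 to 921 in the other 5).

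Single values stood apart in other livers. Control liver 6 had Stat3 at 147 CPM (93.4 to 112 in the other 5), control liver 4 had Socs3 at 8.65 CPM (0.574 to 3.24 in the other 5), and control liver 5 had Ldha at 593 CPM (383 to 456 in the other 5). Control liver 5 was the lowest control for Tnfrsf1a, at 55.4 CPM (74.6 to 85.6 in the other 5). Tumour-bearing liver 1 had Cyp2a4 at 2.93 CPM (0 to 0.395 in the other 5).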

How the results depend on the processing

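The 252 called genes kept their direction under each other scaling, filter and tool tried and without each library, wherever they had a value. All these fits used counts from which the genes had been called, so a kept direction was largely set in advance. The number called did depend on the setting. DESeq2 called 462 (309 higher, 153 lower, 247 under 2-fold), and library totals 293 (116 higher, 177 lower, 157 under 2-fold). The 2 WT groups alone gave 128 (106, 22 and 34), the same with the run of label numbers as a block 126 (107, 19 and 30). Within the lower run 38 were called (33, 5 and 1) and within the higher run 50 (36, 14 and 0); these fits hold fewer livers. Leaving out 1 library gave 133 to 444 calls, 116 to 262 higher, 17 to 182 lower and 37 to 228 under 2-fold. The cause was not tested for the other changes.

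Same-numbered livers of the 2 WT groups had correlations of 0.0768, -0.0868, 0.0363, -0.0961, 0.309 and 0.00825, and only number 5 matched best with its own. Most same-numbered livers carry neighbouring identifying numbers in the labels, and these correlations cannot exclude that they were pairs. With the replicate block 219 genes were called (175 higher, 44 lower). Values of genes not called changed sign in these settings: Alb -0.0258 within the lower run; Serpina3k -0.0831 with library totals and -0.104 (without tumour-bearing liver 6) to 0.331 with 1 library left out, also -0.00659 without control liver 2; Hspa5 0.154 with voom and 0.688 within the lower run; St3gal5 -0.241 without tumour-bearing liver 6 (up to 1.17 without another library) and -0.133 within the lower run; Uqcrq -0.00619 with library totals; Hsd3b5 0.212 within the lower run.

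Of 103 named called genes, other scalings, filters, tools, blocks and the 2 WT groups alone ended the call in 130 of 1022 values, leaving out 1 library in 288 of 1854, and fitting within 1 run in 170 of 202; none reversed. Of 52 list medians 13 moved beyond the spread between replicates with library totals, 1 without tumour-bearing liver 6, 2 within the lower run and 3 within the higher run. Genes with few tags, such as Ngp, Trem2, Timp1 and Krt23, rest on small counts in most livers.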

Other observations

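Genes with female-biased expression in mouse liver were high in 1 control liver. Cyp2b9 stood at 52.1 CPM in control liver 2, at 0 to 6.03 CPM in the other 5 controls and at 1.28 to 4.34 CPM in tumour-bearing livers. Cyp2b13, too low to be tested, had 50 counts, all in control liver 2. That liver had 135 CPM of Ddx3y, within the range of the other controls.

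Xist, the RNA that silences an X chromosome in female cells, was also too low to be tested. It had 6 counts over the 6 control livers and 72 over the 6 tumour-bearing livers. By liver it ranged from 0 to 0.690 CPM in the controls and from 0.453 to 2.75 CPM in the tumour-bearing livers.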
